A study of Mus musculus with 4 samples.

Results

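The genes described here act in mitosis and in the spindle checkpoint, and they were followed in mouse embryonic trachea at day 16 of development. The set holds 50 listed genes. Probe sets were assigned by gene symbol and, for each gene, the one with the greatest average log2(signal + 16) across the 4 arrays was used. On this basis 49 of the 50 genes had a value, out of 18193 genes with a probe set, and all 49 were among the 11694 genes bright enough to be tested. Ccnb1, the major mitotic cyclin, was not paired with a probe set in the annotation used and is not analysed here. The samples were 2 arrays labelled a1H knockout and 2 labelled wild type, all on a C57BL/6 background, with replicate numbers 1 and 2 in each genotype. The name a1H is taken to mean the Cacna1h product, the pore-forming subunit of a T-type calcium channel, and the series' design text describes the embryos sought as homozygous. The labels do not give the deleted part of the gene, nor whether a sample is 1 embryo or a pool, so the p-values rest on a spread between arrays that may be technical.

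Mitosis separates the copied chromosomes into daughter cells. Cyclin-dependent kinase 1 with its cyclins starts the process, kinetochores tie chromosomes to the spindle, and the spindle checkpoint holds back the anaphase-promoting complex until every kinetochore is attached. Condensin compacts the chromosomes, kinesins move them and the spindle poles, and a central spindle guides the final cleavage of the cell. Transcripts of these genes are abundant mainly in dividing cells and mostly peak between the G2 phase and mitosis, so in a tissue they are commonly read as a sign of how many cells are cycling. In quiescent cells many of them are repressed by the DREAM complex, whose MuvB core touches the promoter at a cell cycle genes homology region, or CHR, close to the transcription start. The factor NF-Y binds CCAAT boxes upstream of it.

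The promoters are shown because these genes are known to be switched together through such elements. They come from RefSeq (GRCm38.p6) and run 5′ to 3′ on the gene's strand, from 120 bases before the transcription start to 50 bases after it. Capitals mark TTTGAA, the usual CHR letters, or its reverse complement TTCAAA, and CCAAT or its reverse complement ATTGG. The first 6 genes had the smallest p-values among members with a promoter window, and the last 2, Ect2 and Anln, had a lower mean in the labelled knockout.
Ncapd2: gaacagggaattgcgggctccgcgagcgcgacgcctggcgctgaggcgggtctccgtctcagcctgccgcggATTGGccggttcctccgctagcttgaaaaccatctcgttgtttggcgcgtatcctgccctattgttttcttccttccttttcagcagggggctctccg
Cdca8: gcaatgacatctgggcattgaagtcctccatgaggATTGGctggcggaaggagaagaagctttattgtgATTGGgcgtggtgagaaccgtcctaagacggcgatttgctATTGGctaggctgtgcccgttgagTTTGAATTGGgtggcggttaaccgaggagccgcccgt
Bub1b: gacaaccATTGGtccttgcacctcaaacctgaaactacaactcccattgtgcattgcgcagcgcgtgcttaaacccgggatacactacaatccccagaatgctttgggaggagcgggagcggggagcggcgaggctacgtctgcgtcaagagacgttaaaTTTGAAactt
Ccnb2: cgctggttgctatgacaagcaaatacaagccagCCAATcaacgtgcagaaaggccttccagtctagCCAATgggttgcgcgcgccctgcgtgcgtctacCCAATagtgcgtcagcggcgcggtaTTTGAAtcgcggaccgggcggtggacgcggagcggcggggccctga
Spc25: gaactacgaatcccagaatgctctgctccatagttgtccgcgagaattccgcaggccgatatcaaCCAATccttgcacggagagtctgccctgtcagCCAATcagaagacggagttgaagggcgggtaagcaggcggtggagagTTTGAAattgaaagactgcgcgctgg
Aurka: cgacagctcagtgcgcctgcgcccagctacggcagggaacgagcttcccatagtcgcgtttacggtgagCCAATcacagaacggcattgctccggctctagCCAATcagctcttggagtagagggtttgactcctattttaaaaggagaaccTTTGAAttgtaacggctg
Ect2: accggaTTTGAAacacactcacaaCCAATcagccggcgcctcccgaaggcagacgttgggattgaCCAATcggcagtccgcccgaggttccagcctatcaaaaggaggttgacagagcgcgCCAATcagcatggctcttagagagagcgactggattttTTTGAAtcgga
Anln: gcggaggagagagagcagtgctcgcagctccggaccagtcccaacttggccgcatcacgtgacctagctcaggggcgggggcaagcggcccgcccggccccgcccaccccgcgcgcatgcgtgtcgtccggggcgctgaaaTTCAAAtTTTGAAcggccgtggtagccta

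These stretches lie at chr6:125191537-125191706 on the minus strand for Ncapd2, chr4:124936868-124937037 (minus) for Cdca8, chr2:118598091-118598260 (plus) for Bub1b and chr9:70421505-70421674 (minus) for Ccnb2. Those of Spc25, Aurka, Ect2 and Anln are chr2:69206164-69206333, chr2:172370521-172370690, chr3:27153829-27153998 and chr9:22389157-22389326, all on the minus strand. In Ccnb2 the TTTGAA begins at position 5 after the start, and 3 CCAAT boxes begin at -87, -54 and -21. Aurka and Spc25 carry a pair of CCAAT boxes and a TTTGAA at 33 and 25. In Cdca8 the TTTGAA at 14 overlaps the ATTGG at 19. The TTTGAA of Ncapd2 begins at -123, just outside the printed stretch. Ect2 has 2 listed starts, of which the first listed is shown, and it holds both motifs, whereas Anln holds TTTGAA but no CCAAT. Members with a higher mean could also lack a motif: Bub1 and Cenpe had no TTTGAA, and Ndc80 and Kif2c no CCAAT.

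Promoter windows of 300 bases, from 250 before the start to 50 after, were listed for 43 of the 50 genes, in 48 windows. TTTGAA on either strand was found in 35 of the 48 windows (72.9%), against 17.9% of all 32851 windows. The same letters were in 12.2% of 41 windows of DNA replication genes and in 45.3% of 64 windows of other mitosis genes. CCAAT on either strand was found in 39 of 48 windows (81.2%), against 37.4% of all windows, and both motifs together in 64.6% against 6.95%. Of the 45 TTTGAA matches in the mitosis windows, 32 (71.1%) began between -30 and +45, a range chosen after the positions were seen, against 19.3% of matches in all windows. In these samples the median of the log2 differences (labelled knockout minus wild type) was 0.33 in the 32 tested members with TTTGAA and 0.29 in the 10 without, and over all tested genes it was 0.04 both with the letters and without them. A match of letters is a description and not a shown binding site.

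**Figure D1:**
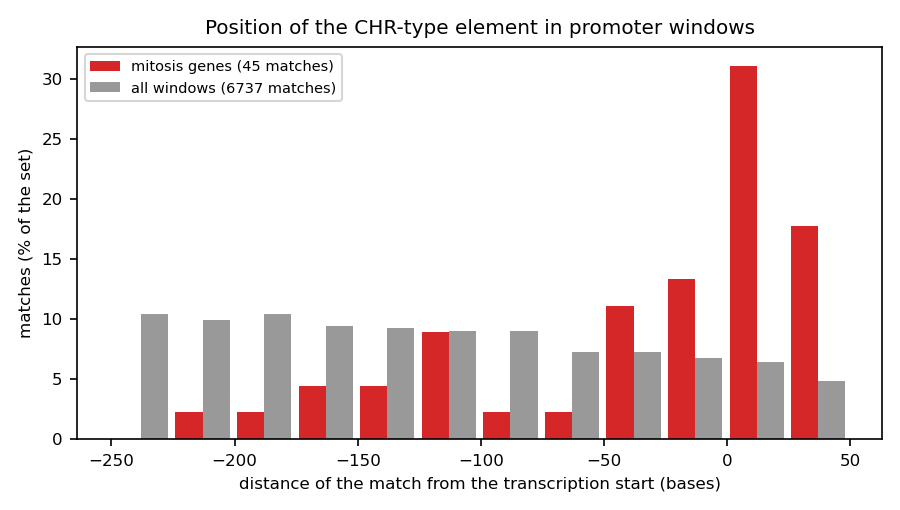
The horizontal axis gives the first base of each TTTGAA or TTCAAA match relative to the transcription start, in bins of 25 bases, and the vertical axis the percent of each set's matches. Red bars are the 45 matches in windows of the mitosis genes and grey bars the matches in all windows; the red bars are tallest in the bin just after the start, at 31.1% against 6.40%.

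Facts about the arrays bear on every value that follows. Cacna1h, the targeted gene, read 981 and 631 on the labelled knockout arrays, against 630 and 538 in wild type, so it gave no check of the genotype labels, on which all directions rest. No gene passed between the genotypes: 0 of 11694 genes, or 0.0%, had a Benjamini-Hochberg adjusted p under 0.05 in limma, while 536 (4.58%) had an unadjusted p under 0.05. An exact two-sided permutation test of 2 arrays against 2 cannot give a p below 0.333. The array median signal was 426 and 320 in the labelled knockout and 459 and 416 in wild type, the actin 3′ to 5′ ratio was 1.90 and 1.97 against 1.69 and 1.66, and the geometric mean of 9 spiked hybridisation controls was 4744 and 14007 against 4787 and 11598, so it went with the replicate number. Only 2 arrays per group limit the precision.

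Most mitosis genes read slightly higher in the labelled knockout, and none passed the test. Of 49 genes, 44 had a higher mean, where 55.9% of all genes tested did, and the median of the log2 differences (labelled knockout minus wild type) was 0.31, or 1.24-fold, against 0.04 over all genes. Within replicate number 1 the median was 0.27 and within number 2 it was 0.38, against 0.03 and 0.04 over all genes. Higher values within both numbers were seen for 40 genes (36.0% of all genes tested), and both labelled knockout arrays lay above both wild-type arrays for 31 (21.5%). Lower values within both numbers were seen for 4 genes (26.3%). Both labelled knockout arrays lay below for 2 genes, Smc2 and Ect2 (14.6%), and the groups overlapped for the other 16. In limma, 10 members had an unadjusted p under 0.05, all higher (2.83% of all genes) and 0 lower (1.75%), but the adjusted p-values ran from 0.875 to 0.98. The differences were small: 16 of 49 genes were at least 1.3-fold higher (10.5% of all genes), and the median half-width of a member's 95% interval was 0.48.

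The set sat higher on both labelled knockout arrays. After centring each gene on its own mean, the median over the 49 genes was 0.15 and 0.15 on the labelled knockout arrays and -0.09 and -0.18 on the wild-type arrays. Labelled knockout replicate 1 was the highest array for 20 genes and labelled knockout replicate 2 for 23, against 5 for wild-type replicate 1 and 1 for wild-type replicate 2. Over all genes tested the same arrays were highest in 28.3% and 31.5%, against 23.0% and 17.2%, so the second labelled knockout array was also the most often highest over all genes. The lowest array was wild-type replicate 2 for 26 genes, and that array was lowest in 30.5% of all genes tested.

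**Figure D2:**
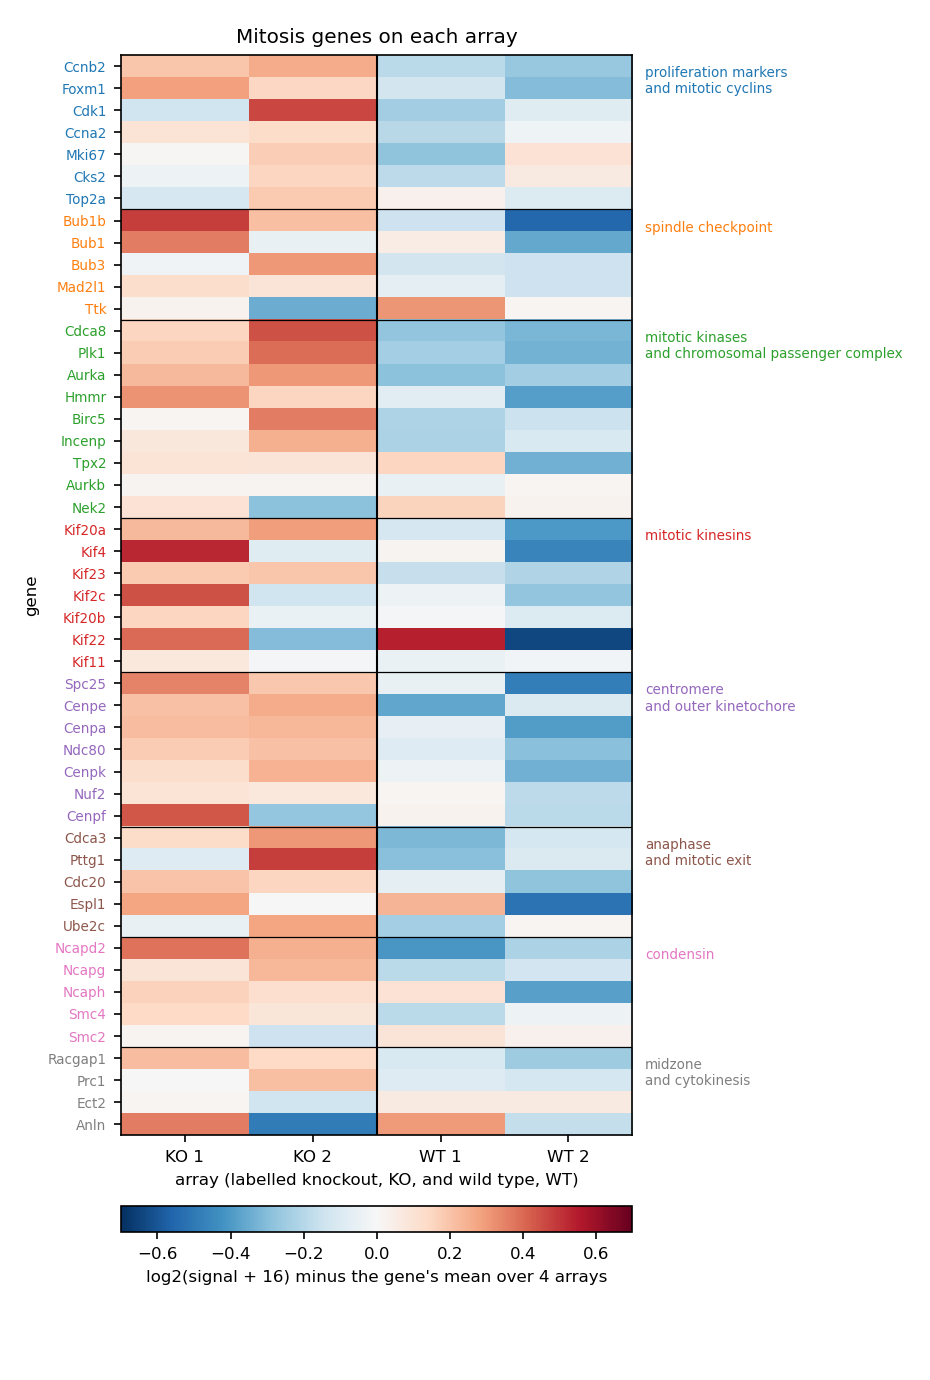
Each row is a gene, grouped by role, and each column an array, with the labelled knockout (KO) left of wild type (WT); colour is log2(signal + 16) minus the gene's mean over the 4 arrays. The columns KO 1 and KO 2 are mostly red and WT 2 mostly blue, while Kif22, Anln, Espl1 and Cenpf differ more between replicate numbers than between genotypes.

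Among the proliferation markers and mitotic cyclins, all 7 measured genes had a higher mean in the labelled knockout (median 0.22 on the log2 scale). In 3 of them the groups were separated upward (21.5% of all genes tested). Ccnb2, a B-type cyclin that activates Cdk1, read 4151 and 4340 in labelled knockout trachea, against 3182 and 3014 in wild type. Its groups did not overlap, and the log2 difference was 0.45 (SE 0.17) with a limma adjusted p of 0.875. Foxm1, the transcription factor that drives G2 and mitotic genes, was also separated, at 970 and 879 against 725 and 639, a log2 difference of 0.43 (SE 0.27). Ccna2, the cyclin of S phase and early mitosis, had 8941 and 9173 against 7320 and 8214, a difference of 0.22. The other 4 genes of this group overlapped between genotypes. Cdk1, the mitotic kinase itself, read 8439 and 12883 in the labelled knockout, against 7870 and 8765 in wild type, so its difference of 0.33 came mainly from the second labelled knockout array and was 0.02 without it. Mki67, the antigen used to stain cycling cells, read 9839 and 11026, against 8028 and 10486, and its log2 difference of 0.18 was -0.01 without wild-type replicate 1. Top2a, the topoisomerase that untangles sister chromatids, read 8937 and 10998, against 9898 and 9060, a log2 difference of 0.07 (95% interval -0.40 to 0.54) that was -0.0012 after quantile normalisation. Cks2, a small Cdk-binding protein, had 0.12. The widely used markers Mki67 and Top2a had smaller differences than Ccnb2 or Foxm1, and the contrast among genes was not tested.

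Of the 5 spindle checkpoint genes, 4 had a higher mean, and Bub1b had the highest difference of all 49 members. Bub1b, which encodes the inhibitor BubR1 of the anaphase-promoting complex, read 4194 and 3463 in the labelled knockout, against 2702 and 2043 in wild type. The arrays did not overlap, and the log2 difference was 0.69 (SE 0.22) (limma adjusted p 0.875). A further Bub1b probe set gave 0.50, with 3528 and 3010 against 2507 and 2117. Mad2l1, which encodes the Mad2 protein that sequesters Cdc20, read 4928 and 4804, against 4316 and 4078, a narrow but complete separation with a log2 difference of 0.21. Bub3, the kinetochore anchor of the Bub1 proteins, had 0.28 without overlap on its brightest probe set. The next brightest gave -0.04 with overlap, and the dimmer ones ran from -0.53 to 0.0002. Bub1, a checkpoint kinase, had 0.31 with overlapping groups. Ttk, the kinase also called Mps1 that starts the checkpoint signal, was the exception and depended on the probe set. The slightly brighter one read 1661 and 1277, against 2024 and 1642, a log2 difference of -0.32 with overlap. The other read 1723 and 2109, against 1410 and 1241, a difference of 0.52 with no overlap.

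Mitotic kinases and the chromosomal passenger complex, which corrects faulty attachments, gave a median log2 difference of 0.37. In this group 7 of 9 genes were separated upward (21.5% of all genes tested). Cdca8, which encodes the passenger subunit borealin, read 7767 and 9549 in the labelled knockout, against 5777 and 5612 in wild type. Its log2 difference was 0.60 (SE 0.18) with a limma adjusted p of 0.875, and its 2 further probe sets gave 0.62 and 0.57. Without labelled knockout replicate 1 the Cdca8 difference was 0.74 with a limma adjusted p of 0.0391, but that fit holds 1 labelled knockout array, which is assumed to vary as the wild-type arrays do, and it passed 492 of all genes, against 0 with all 4 arrays. Plk1, polo-like kinase 1, read 1277 and 1487, against 954 and 895, a log2 difference of 0.57 (SE 0.25). Aurka, the kinase of spindle poles, read 2210 and 2333, against 1544 and 1595, with tight replicates and a log2 difference of 0.53 (SE 0.20). Hmmr, a spindle-assembly protein, had 5513 and 4920, against 4191 and 3389, a difference of 0.46, while 2 further bright probe sets gave 0.13 and 0.12 with overlap. The passenger subunits Birc5 (survivin) and Incenp had 0.37 and 0.33, both without overlap. Further Incenp probe sets, from bright to dim, gave 0.64, -0.37, -0.47 and -0.52. Aurkb, the kinase of the same complex, read 3769 and 3769, against 3579 and 3745, a log2 difference of 0.04 whose 95% interval ran from -0.35 to 0.43. A further Aurkb probe set gave 0.16 with overlap. On their brightest probe sets the partner subunits of Aurkb had differences of 0.33 to 0.60, and the contrast with the kinase was not tested. Tpx2, which activates Aurka, had 0.19 with overlap on its brightest probe set and 0.47 without overlap on the next. Its dim probe sets gave -0.77 and -0.91. Nek2, a centrosome kinase, depended on the probe set. Its brightest one read 1242 and 945, against 1290 and 1174, a log2 difference of -0.18 with overlap that was 0.05 after arrays were centred on their medians. A second one, nearly as bright, read 1297 and 1107, against 1055 and 967, a difference of 0.24 without overlap.

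Kinesin motors of mitosis had a higher mean in 7 of 7 genes, with a median of 0.31. Groups were separated upward in 3 (42.9%), against 21.5% of all genes tested. Kif20a, a motor of the central spindle, read 2917 and 3059 in the labelled knockout, against 2292 and 1879 in wild type, a log2 difference of 0.52 (SE 0.20). Kif23, which forms the centralspindlin complex, had nearly equal replicates, 2849 and 2865 against 2235 and 2162, and a difference of 0.38. Its further probe sets gave -0.11 and, for a dim one, -0.81, both with overlap. Kif11, the motor that pushes spindle poles apart, read 3490 and 3283, against 3207 and 3264, a log2 difference of 0.06 (95% interval -0.34 to 0.47), and its further probe sets gave -0.26 and -0.53. Kif4, Kif2c, Kif20b and Kif22 had 0.44, 0.31, 0.11 and 0.09 with overlap. The next brightest probe set gave 0.40 for Kif2c and -0.33 for Kif20b, both without overlap. Kif22 depended on the probe set. On its brightest one the replicate numbers differed more than the genotypes, with 6998 and 4301 in the labelled knockout, against 7756 and 3406 in wild type. Its further probe sets gave 0.41 and 0.40, both without overlap.

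At the centromere and outer kinetochore all 7 genes had a higher mean, with a median of 0.38, and 6 were separated upward (21.5% of all genes tested). Spc25, a subunit of the Ndc80 complex that grips microtubules, read 5813 and 5219 in the labelled knockout, against 4412 and 3259 in wild type, a log2 difference of 0.54 (SE 0.20) that was 0.32 without wild-type replicate 2. Cenpe, a kinetochore motor, read 2175 and 2261, against 1460 and 1759, a difference of 0.47, but a further probe set gave -0.31 with overlap and the mean of both was 0.08. Cenpa, the histone H3 variant that marks centromeres, read 4867 and 4936, against 4025 and 3201, a difference of 0.45 (SE 0.18) that was 0.28 without wild-type replicate 2. The Ndc80 complex members Ndc80 and Nuf2 had 0.38 and 0.17, and Cenpk, of the inner kinetochore, had 0.37. Further Cenpk probe sets gave -0.61 and -0.68, both with overlap. Cenpf, a kinetochore protein of G2 and mitosis, had 0.17 with overlap on its brightest probe set. Its further probe sets gave -0.25 and -0.50, both with the labelled knockout arrays below the wild-type arrays. Within the set, the groups were separated upward on the brightest probe set for each of the 3 Ndc80 complex genes (21.5% of all genes tested).

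The 5 genes of anaphase and mitotic exit all had a higher mean, with a median of 0.35. Cdca3, an adaptor for the destruction of the Wee1 kinase, read 7090 and 8006 in the labelled knockout, against 5211 and 5957 in wild type, a log2 difference of 0.43 (SE 0.18). Cdc20, the activator of the anaphase-promoting complex, read 5509 and 5323, against 4559 and 3931, a difference of 0.35 without overlap, and its further probe sets gave 0.24 and -0.13. Pttg1 (securin), the inhibitor of separase, had 0.39 and was separated on its brightest probe set, but further ones gave 0.14 and -0.26 with overlap. Espl1, which encodes separase, and Ube2c, a ubiquitin-conjugating enzyme of that complex, had 0.27 and 0.23 with overlap.

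Of the 5 condensin genes, 4 were separated upward (21.5% of all genes tested). Smc2 was separated downward on its brightest probe set (14.6% of all genes tested). Ncapd2, a regulatory subunit of condensin I, read 3236 and 2958 in the labelled knockout, against 1873 and 2126 in wild type. Its log2 difference was 0.63 (SE 0.19) with a limma adjusted p of 0.875, and its p-value was the smallest of the 49. Its other probe set, below the median level, gave -0.56. Ncapg, Ncaph and Smc4, further subunits, had 0.32, 0.28 and 0.22. Smc2, a core ATPase of condensin, lay below wild type on both arrays, at 7790 and 6951 against 8186 and 7847, a log2 difference of -0.12 (95% interval -0.54 to 0.29) that was 0.11 after arrays were centred on their medians. The next brightest Smc2 probe sets gave 0.16 and 0.14, with both labelled knockout arrays above both wild-type arrays, and the mean over its 5 probe sets was -0.03. In the central spindle and cytokinesis group, Racgap1 of centralspindlin and Prc1, a bundler of midzone microtubules, had 0.36 and 0.22 without overlap. Their next brightest probe sets gave 0.19 for Racgap1 and -0.05 for Prc1, both with overlap. Ect2, the exchange factor that activates RhoA at the cleavage site, read 5984 and 5373, against 6188 and 6204, a difference of -0.13 without overlap, which was 0.10 after centring on medians. Anln (anillin), a scaffold of the contractile ring, read 4556 and 2533, against 4380 and 3161, a difference of -0.13 with overlap, which was also 0.10 after centring. This was the one role group with as many lower as higher genes, 2 and 2, with a median of 0.04. The count depends on how genes were grouped. Kif20a of the central spindle and Kif23 of centralspindlin were placed with the kinesins and had 0.52 and 0.38.

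**Figure D3:**
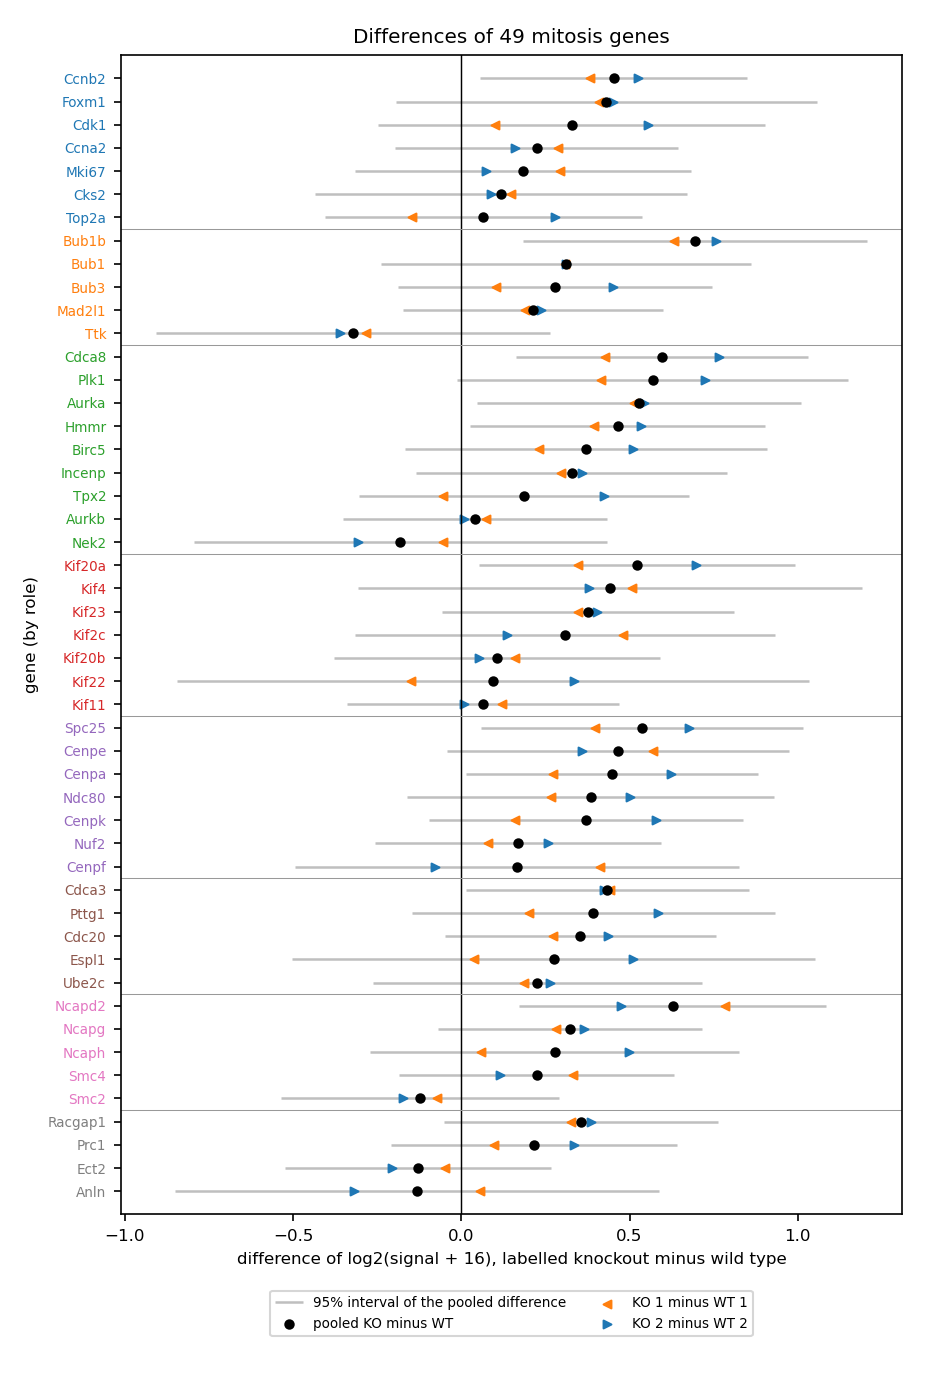
Black points are pooled log2 differences of signal + 16, labelled knockout minus wild type, grey lines their 95% intervals before adjustment, and orange and blue triangles the differences within replicate numbers 1 and 2; rows are 49 genes by role. Of the pooled points 44 lie right of zero, and Smc2, Ect2, Anln and Nek2 lie left of it here but right of it after arrays are centred on their medians.

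The size of the shift depended on which probe sets stood for a gene. The 49 genes had 121 probe sets, and 13 genes had 1 only. Of the brightest probe set of each gene 44 of 49 were higher in the labelled knockout. Of 45 further probe sets at or above the median level of all probe sets, 26 were higher, with a median log2 difference of 0.14. Of 27 further probe sets below that level, 5 were higher and the median was -0.47. Over all genes the same classes were higher in 48.2%, 41.0% and 26.6%, with medians of -0.02, -0.08 and -0.32, so dim probe sets were lower in the labelled knockout across the array. With all probe sets of a gene averaged, 30 of the 43 genes then bright enough were higher, with a median of 0.11, against -0.02 over all genes. Among 31 members with several probe sets at or above the median level, all were higher in 13, none was lower in all, and 18 had both signs. Cdca8 gave 0.60, 0.62 and 0.57 and Bub1b 0.69, 0.50 and 0.23, while Ndc80 and Ccnb2 had a single probe set each. Dim probe sets of Spc25 and Foxm1 gave -0.85 and -1.83. Cenpa gave 0.45 on its brightest probe set, with 4867 and 4936 against 4025 and 3201, but -1.24 on another, with 482 and 141 against 561 and 747. Whether the dim probe sets bind other transcript forms was not tested.

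**Figure D4:**
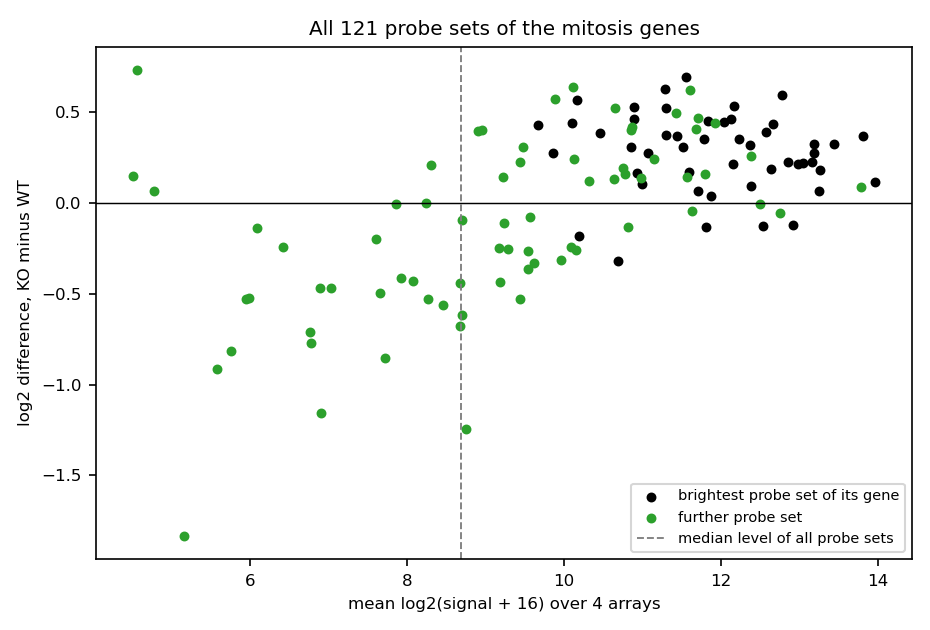
Each point is 1 of the 121 probe sets of the mitosis genes, with its mean log2(signal + 16) over 4 arrays on the horizontal axis and its log2 difference, labelled knockout minus wild type, on the vertical axis. Black points, the brightest probe set of each gene, lie mostly above zero, while green points, the further probe sets, fall below zero left of the dashed median level in 22 of 27 cases.

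Differences were also set against brightness among the tested genes. In 4 equal classes of all tested genes by mean level, from dim to bright, the median log2 difference was 0.02, 0.06, 0.06 and 0.02. The mitosis genes in those classes numbered 3, 10, 19 and 17, with medians of 0.43, 0.29, 0.36 and 0.22. Cyclic loess normalisation, added after the data were seen, left the median of the set at 0.30 and 44 genes higher. Centring arrays on their medians gave 0.54 and 48 genes higher, but it also moved the median of all genes to 0.27 and the share of all genes that were higher to 82.6%, against 55.9%.

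Other genes of the cell cycle gave context. Of 63 tested mitosis genes outside the set, from a list of 70, 47 had a higher mean (55.9% of all genes tested) and 16 a lower one. Their median log2 difference was 0.16, and 0 passed the test. Pbk, a mitotic kinase, read 4920 and 5226 in the labelled knockout, against 3530 and 3688 in wild type, a log2 difference of 0.49. Spc24, the partner of Spc25, had 0.60, Mad1l1, which recruits Mad2 to kinetochores, had 0.84, and Cdca5 (sororin), which protects cohesion, had 0.63, all without overlap. The lowest was Cit, the citron kinase of cytokinesis, at -0.53. Of 42 tested DNA replication genes 40 had a higher mean (55.9% of all genes tested), with a median of 0.38 (0.24 in replicate number 1, 0.58 in number 2). Both labelled knockout arrays lay above both wild-type arrays for 26 (21.5% of all genes tested). Cdt1, which licenses replication origins, read 7260 and 7817, against 5084 and 4455, a log2 difference of 0.66. Pold1, Rfc4 and Prim1, of the replication fork, had 0.65, 0.60 and 0.60.

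Genes of cell cycle exit were divided in direction. Of 16 tested, 7 were higher (55.9% of all genes tested) and 9 lower, with a median of -0.03. Both labelled knockout arrays lay below both wild-type arrays for 5 (14.6% of all genes tested) and above for 2 (21.5%). Cdkn1b, the inhibitor p27, read 9089 and 8078 in the labelled knockout, against 10751 and 11228 in wild type, a log2 difference of -0.36 (SE 0.19). Cdkn2c, Rb1 and Rbl2, further brakes on the cycle, had -0.36, -0.22 and -0.47. The genes named here were all lower, and the highest of the 16 tested had 0.45. Subunits of DREAM and MuvB had 5 of 11 higher, against 55.9% of all genes tested, and a median of -0.03. E2f4, the repressive E2F of DREAM, read 848 and 715, against 482 and 386, a difference of 0.83, whereas Lin9 and Lin54 of MuvB had -0.29 and 0.18. None of these genes passed the test in limma.

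**Figure D5:**
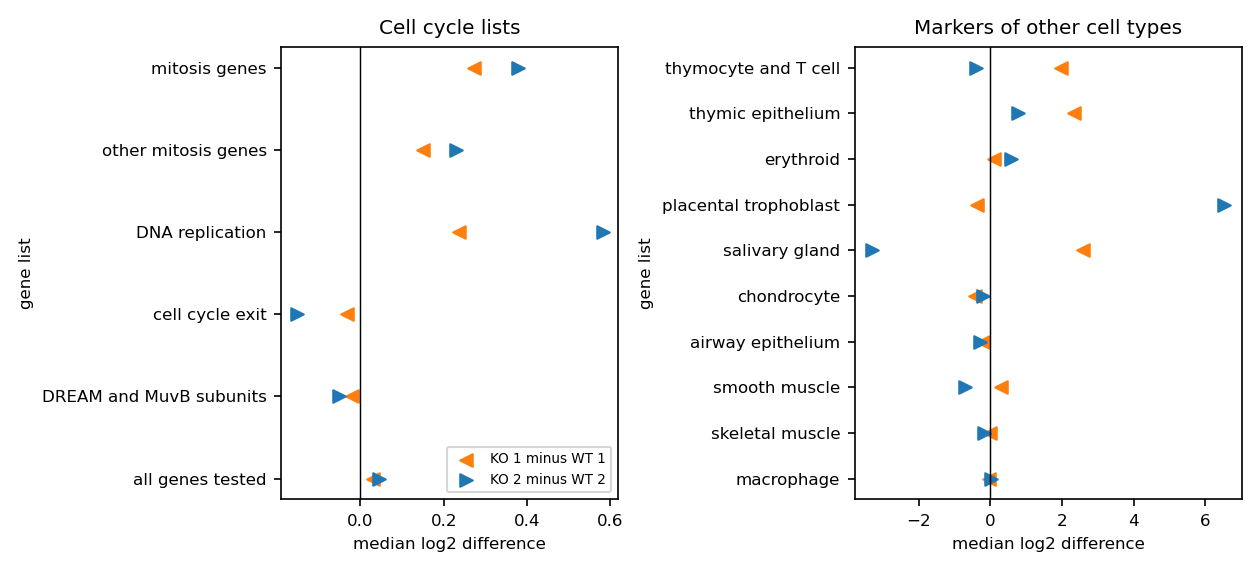
Triangles are the median log2 difference of each gene list within replicate numbers 1 (orange, KO 1 minus WT 1) and 2 (blue, KO 2 minus WT 2), for cell cycle lists on the left and markers of other cell types on the right, on separate horizontal scales. The mitosis genes lie at 0.27 and 0.38, while the placental list lies at -0.36 and 6.53 and the salivary list at 2.58 and -3.29.

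Markers of other cell types moved between the same arrays, and a bulk sample cannot tell more dividing cells from more RNA per cell or from other dividing cells in the dissection. These marker counts take every gene with a probe set, dim ones included, and 48.2% of all such genes were higher. Thymocyte and T-cell markers were higher in 16 of 19, and their summed signal was 48090 and 20861 in the labelled knockout, against 11130 and 23778 in wild type. Their median difference was 1.98 within replicate number 1 and -0.40 within number 2, where the mitosis median was 0.38. Thymic epithelium markers were higher in 8 of 9, with sums of 37606 and 26730, against 9407 and 17882, which did not overlap. Erythroid markers were higher in 9 of 9, with sums of 18493 and 22367, against 15207 and 13941, also without overlap. Of these 9, 3 were bright enough to be tested and 5 were higher within both replicate numbers. Their median was 0.10 within number 1 and 0.57 within number 2. Placental markers were high on 1 array only, with sums of 599 and 153375, against 858 and 883. Salivary gland sums were 25007 and 9216, against 622 and 62898.

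Resident cell types of the tracheal wall were measured on the same arrays, again beside a share of 48.2% higher over all genes with a probe set. Chondrocyte markers were higher in 3 of 15, with a median of -0.31. Their sums were 117855 and 158654 in the labelled knockout, against 154405 and 172949 in wild type, which overlapped. Of these 15 genes, 11 were lower within both replicate numbers (26.3% of all genes tested). Both labelled knockout arrays lay below both wild-type arrays for 8 (14.6%). In limma 3 had an unadjusted p under 0.05, all lower (1.75% of all genes tested), and 0 passed after adjustment. Airway epithelium markers were higher in 3 of 11, with sums of 64857 and 81579, against 66569 and 94590. Smooth muscle markers were higher in 2 of 8, with sums of 50401 and 44771, against 44839 and 63728, and skeletal muscle markers in 6 of 11, with sums of 105987 and 158204, against 106163 and 152092. Macrophage markers were higher in 4 of 9, with sums of 24765 and 32696, against 23662 and 28825. No marker in these lists was listed at 0 on any array. The part of these cell types in the mitosis values was not tested.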

How the data were processed

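Total RNA of mouse embryo trachea was amplified and biotin-labelled and hybridised to 1 Affymetrix array per sample, per the labels' protocols. The authors deposited 1 linear intensity for each of 45101 probe sets and array. The submitters' processing notes name MAS5, with no version, and detection calls were not used. All arrays shared a 2% trimmed mean of 1500, a sign of scaling to a common target. MAS5 values of dim probe sets are noisy, and amplification favours 3′ ends. Groups and replicate numbers came from sample titles. A probe set was named where the platform annotation gave exactly 1 gene (34945 probe sets; 932 had several, 9160 none listed and 64 were controls), with symbols checked by gene identifier against RefSeq (GRCm38.p6).

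The test used limma 3.58.1 (R 4.3.3) on log2(signal + 16), with lmFit and trended eBayes, all 4 arrays and no term but genotype, on 1 probe set a gene and on genes with a mean at or above the median of all probe sets, a signal of 397. Benjamini-Hochberg adjustment ran over 11694 genes, with a threshold of 0.05. Differences on this scale understate those of dim genes. SEs and 95% intervals are those of the fit. The fit was tested on simulated data. Motifs were searched in RefSeq promoter windows with Python 3.11.15, and figures were drawn with matplotlib 3.10.9. Members and lists were chosen with earlier results of these data known. Values on every array are given for the 12 members with the smallest p and for those that were lower. They are also given for 13 members named whatever their values, except Ccnb1, which had no probe set. Other lists are shown by up to 4 genes with the smallest p. Cit, Lin9 and Lin54, the array values of Ccna2, Kif22 and Kif23, and the further probe sets named were chosen after their values were seen. Alternatives were the pseudocount, the filter on dim genes, quantile, median and loess normalisation, the variance model, the probe sets used, a replicate block, and each array left out in turn.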

Additional observations from a re-analysis of the deposited data

How the results depend on the processing

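Of 392 values of 25 named members under 16 alternatives, 372 kept their direction and 20 did not, and 15 members kept it throughout. The count of mitosis genes with a higher mean stayed between 30 and 48. Their median log2 difference, 0.31, was 0.54 with arrays centred on their medians, 0.11 with the mean of all probe sets and 0.21 with the mean of probe sets above the median level, an alternative added after the data were seen. Leaving out each array in turn gave medians of 0.28 to 0.34, 0 to 1 members past the threshold and 0 to 492 genes past it: 492 and 104 when the first or the second labelled knockout array was left out, and 0 and 1 when the first or the second wild-type array was. The causes were not tested.

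Single members changed sign in these settings. With quantile normalisation Top2a had -0.0012. With arrays centred on medians Nek2 had 0.051, Smc2 0.11, Anln 0.10 and Ect2 0.10. With the mean of all probe sets Top2a had -0.30, Ttk 0.10, Kif11 -0.24, Cenpa -0.30 and Spc25 -0.16. With the mean of probe sets above the median level Top2a had -0.19, Ttk 0.10, Nek2 0.031, Kif11 -0.24 and Cenpa -0.30. With arrays left out, the lowest and highest values were -0.084 and 0.22 for Top2a, -0.38 and 0.013 for Nek2, -0.55 and 0.29 for Anln, -0.0098 and 0.38 for Mki67, 0.023 and 0.63 for Cdk1, 0.32 and 0.75 for Spc25, 0.28 and 0.61 for Cenpa, and 0.45 and 0.74 for Cdca8, which passed the threshold once the first labelled knockout array was left out. Each such fit leaves 1 array in a genotype, assumed to vary like the other genotype's pair. With the mean of probe sets above the median level Cenpe had 0.076, Hmmr 0.24 and Cdc20 0.16, while averaging every probe set gave 0.035 for Ncapd2 and 0.10 for Hmmr.

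With the replicate block the median was 0.31 and 44 members were higher, with 0 genes and 0 members past the threshold (15 members with an unadjusted p under 0.05 in limma, against 10 without it). The labels do not say that the numbers pair the samples; over genes, the difference between replicate numbers in the labelled knockout correlated with that in wild type at 0.32. With 2 arrays a group and a median 95% half-width of 0.48, a difference near the members' median lies within the error of a single gene; the differences of 10 members were larger than their own half-width before adjustment.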
